A study of Mus musculus with 4 samples.

Results

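The 9 hepatocyte transcription factors Hnf4a, Foxa1, Foxa2, Foxa3, Cebpa, Cebpb, Nr1i2, Nr1i3 and Prox1 were followed in primary mouse hepatocytes with and without Drp1, the dynamin-related GTPase that divides mitochondria. They were taken by gene name, and 12 probes of an Agilent one-colour array of 37074 named genes or transcripts carry these names. The 4 arrays hold 1 culture each, and whether a culture pooled several mice is not stated. Nor is it stated whether both cultures of a genotype came from the same mouse or preparation. If they did, genotype and animal cannot be told apart. Control hepatocytes came from C57BL/6 Drp1 flox/flox littermates (wild-type in the source label), and Drp1LiKO hepatocytes from C57BL/6 mice that carry the same floxed alleles and an Alb-Cre transgene, whose albumin promoter is active in hepatocytes and their precursors, so both genotypes share the floxed alleles. Cells of each genotype were either untreated or exposed to the saturated fatty acid palmitate at 200 μM, and were harvested 24 h after seeding. In the study's methods palmitate was dissolved in alcohol and then diluted in medium with albumin. Its cytokine and imaging assays lasted 24 h and gave PBS to cells without fatty acid. Whether the untreated array cultures received alcohol and albumin is not stated there, so palmitate and this vehicle cannot be told apart. The mice were males, their age is not given in the sources used here, and according to its label the untreated control array was also deposited, as raw data, under another series. Both untreated arrays lay on one slide and both palmitate arrays on another, so palmitate and slide cannot be told apart, whereas each slide held both genotypes.

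Hepatocyte identity rests on a small set of DNA-binding proteins that bind one another's genes and, together, the genes of plasma proteins, lipoproteins and drug metabolism. Hnf4a is a nuclear receptor that maintains the mature hepatocyte programme. The Foxa proteins open chromatin at liver enhancers, Cebpa and Cebpb are leucine zipper proteins of metabolic and acute phase genes, and Prox1 is a homeobox protein that hepatocytes share with lymphatic endothelium. Nr1i2 encodes the pregnane X receptor and Nr1i3 the constitutive androstane receptor (CAR), the sensors of foreign compounds that switch on Cyp3a and Cyp2b genes, and both are known to decline when hepatocytes are put in culture.

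The probes read by the results below that matter most are shown here, since a single 60-base probe stands behind each value. For Nr1i3, the probe that gave a signal starts at base 1070 of the transcript (build mm9 as the scanner tables give it, chr1:173147776-173147835, plus strand), and a second one starts at base 200 and spans 229 genomic bases (chr1:173144301-173144529), more than its own length. For Hnf4a, the probe nearer the 5′ end starts at base 413 (chr2:163378302-163378361, plus strand).
Nr1i3, base 1070: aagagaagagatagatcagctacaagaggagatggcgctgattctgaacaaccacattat
Nr1i3, base 200: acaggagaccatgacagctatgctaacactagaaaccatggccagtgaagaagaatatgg
Hnf4a, base 413: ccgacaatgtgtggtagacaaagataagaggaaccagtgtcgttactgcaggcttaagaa

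Of the 9 factors, 8 were measured well above background, the scanner software's own call, on all 4 arrays, and 1, Nr1i2, on none. Levels are given as log2 intensity minus the 75th percentile of the array, so 0 is the signal at that percentile, and levels of different probes are not set against each other. The arrays had 44.7% to 51.1% of their probes well above background and no saturated spot. Dnm1l, the gene of Drp1, was at 2.44 in both control cultures and at 1.09 (untreated) and 1.02 (palmitate) in the Drp1LiKO cultures, and whether its probe lies in the deleted part is not known here. A second Dnm1l probe was well above background on only 2 arrays. Hepatocyte markers were present, with 19 of 20 well above background on all 4 arrays, and Alb was between 8.74 and 9.04. They were also higher in Drp1LiKO cells, 5 of 19 past 2-fold without and 6 of 20 with palmitate (1 of these, Pck1, against an array where it was not well above background) and none lower by that much, with median log2 differences of 0.50 in both conditions.

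The constitutive androstane receptor gene Nr1i3 was the member that differed most. Its level was -4.59 in untreated control, -2.87 in untreated Drp1LiKO, -3.21 in palmitate control and -1.95 in palmitate Drp1LiKO cells. Both Drp1LiKO cultures were thus above both control cultures, and within each genotype the palmitate culture was the higher one. It was 3.30-fold higher in Drp1LiKO than in control cells without palmitate and 2.41-fold higher with it, which are log2 differences of 1.72 and 1.27 against software spot errors of 0.36 and 0.27. Palmitate went with 2.60-fold (log2 1.38, spot error 0.39) more signal in control and 1.90-fold (log2 0.92, spot error 0.22) more in Drp1LiKO cells. From high to low the order was palmitate Drp1LiKO, untreated Drp1LiKO, palmitate control and untreated control, and the closest neighbours, untreated Drp1LiKO and palmitate control, differed by 0.34 against a spot error of 0.27.

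These were dim spots. The Nr1i3 intensity was 19.9, 73.3, 45.3 and 120.5 in the order untreated control, untreated Drp1LiKO, palmitate control and palmitate Drp1LiKO, and the untreated control sat just above the lowest level called well above background on its array, -4.72. With normexp background correction, which adds an offset of 50 to every signal, the same differences shrank to 0.55, 0.62, 0.57 and 0.64 on the log2 scale, below 2-fold in each comparison, with the direction kept. The second Nr1i3 probe, at base 200, was not well above background on any array, so no fold is given from it.

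**Figure D1:**
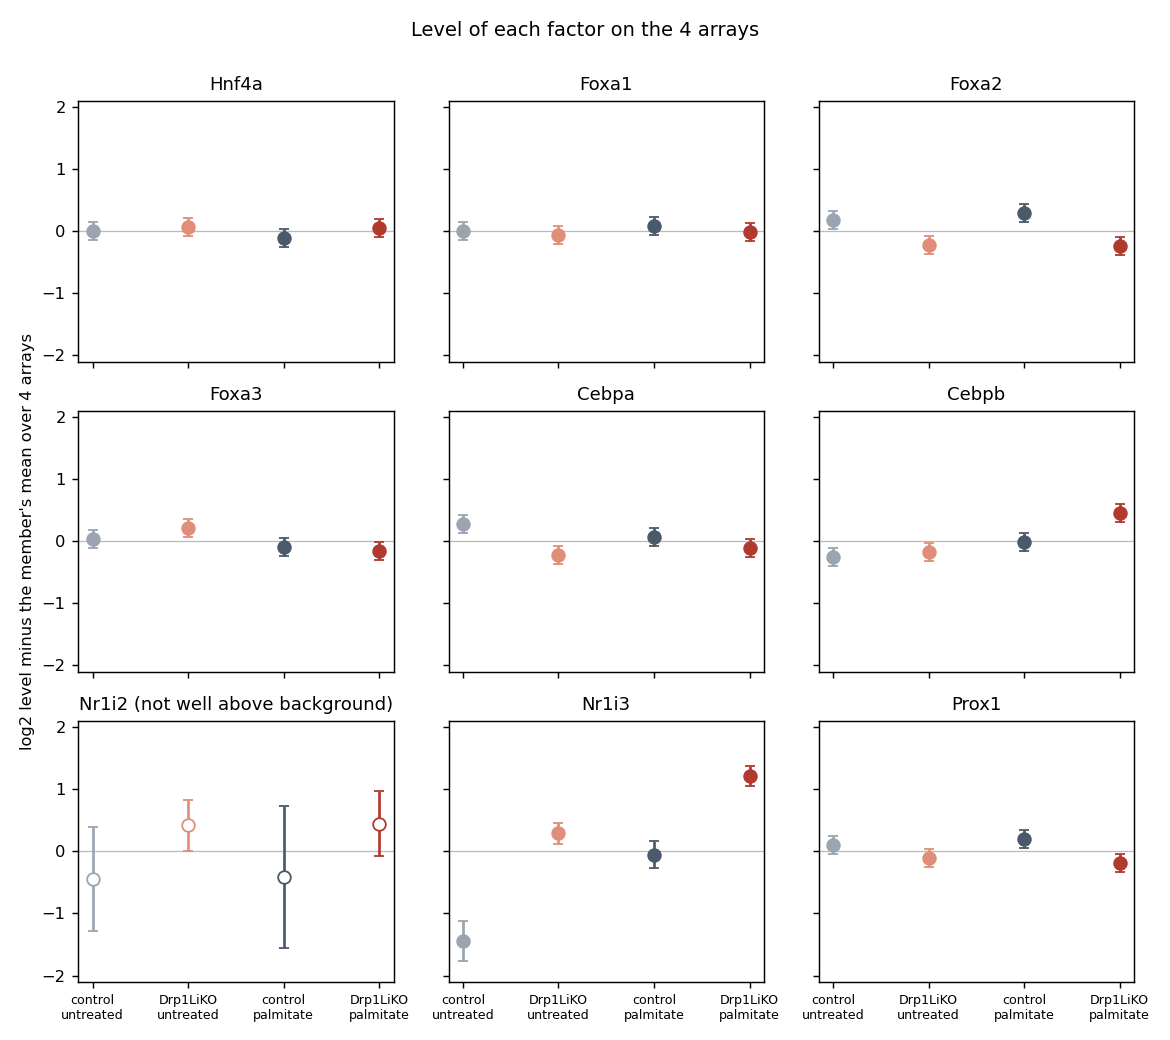
Level of each of the 9 factors on the 4 arrays, as the log2 level of its brightest probe minus that probe's mean over the arrays (y axis), with 1 point per culture and bars of 1 software spot error. Nr1i3 spans 2.65 log2 units, Cebpb 0.72, the other measured factors between 0.13 and 0.54, and Nr1i2 is drawn open because no array had it well above background.

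Read against all genes, 1 of 8 measured factors stood 2-fold or more above control in the Drp1LiKO cells without palmitate and none was 2-fold below, beside 8.84% and 5.60% of 19874 genes (14.4% in either direction). With palmitate the count was again 1 of 8, Nr1i3, beside 7.25% of 18891 genes higher, 4.27% lower and 11.5% in either direction. Among genes well above background on both arrays of a comparison, 7.82% and 5.55% differed at least 2-fold, and 2.36% and 3.22% differed by as much as Nr1i3. For palmitate in control cells the count was 1 of 8, also Nr1i3, beside 2.83% of 18772 genes higher, 2.88% lower and 5.71% in either direction, and of the 16829 genes well above background on both arrays 1.11% differed 2-fold and 0.44% by as much as Nr1i3. That comparison shares the untreated control array with the untreated genotype comparison. In Drp1LiKO cells 0 of 8 factors differed 2-fold with palmitate, beside 3.91% of 19747 genes higher, 3.12% lower and 7.03% in either direction, or 2.40% of those well above background on both arrays.

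With 1 array per group, the only test available was a limma model with additive effects of genotype and palmitate. This model leaves 1 residual degree of freedom over the 4 arrays, which also holds any interaction of genotype and palmitate. The model thus measures no spread between mice. Its genotype effect for Nr1i3 was 1.49 ± 0.17 (SE) with a Benjamini-Hochberg adjusted p of 0.127, and its palmitate effect 1.15 ± 0.17 with an adjusted p of 0.513. By limma, 0 of 20614 genes (0%) passed an adjusted p of 0.05 for either effect, while 5365 (26.0%) had an unadjusted p under 0.05 for genotype and 1989 (9.65%) for palmitate. This count depended on how the variance was modelled and on which genes were fitted. When the variance was allowed to follow intensity, 5275 genes (25.6%) passed for genotype, among them Nr1i3 (adjusted p = 0.00748) and Foxa2 (adjusted p = 0.01) and no other factor, and 95 genes (0.461%) passed for palmitate, with none of the factors among them. Restricted to the 16611 genes that every array measured well above background, 2525 (15.2%) passed for genotype, with Nr1i3 at an adjusted p of 0.0253 and Foxa2 at 0.0501, and with normexp background correction 1513 genes (7.34%) passed, Nr1i3 among the factors.

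**Figure D2:**
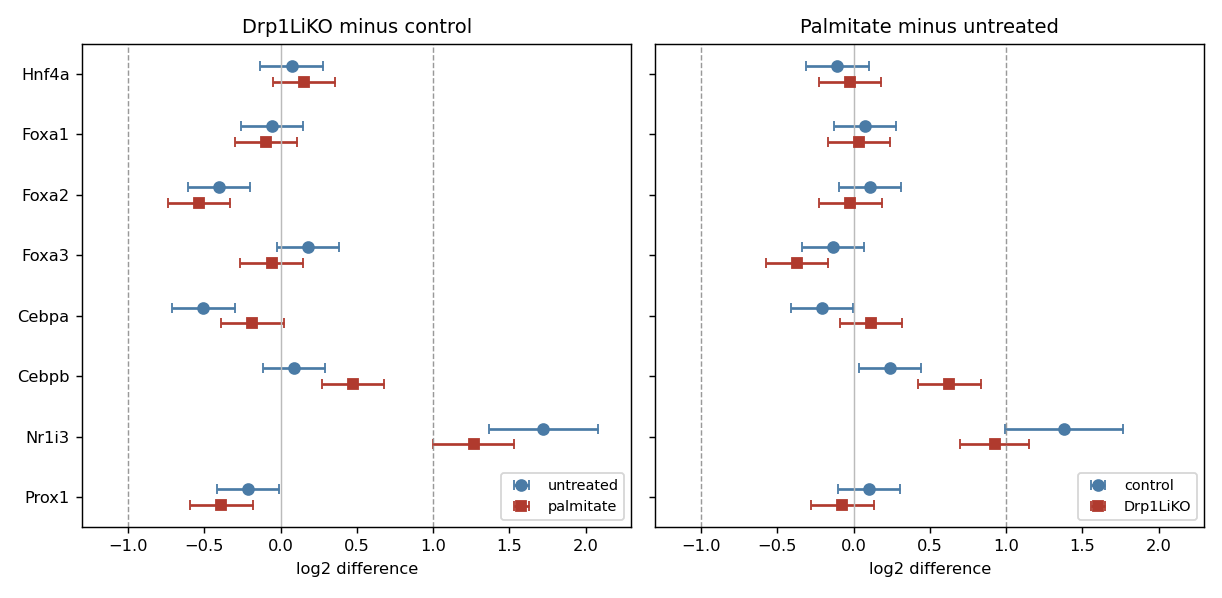
Log2 difference of the 8 measured factors between genotypes (left, untreated and palmitate) and between palmitate and untreated cells (right, control and Drp1LiKO), with bars of 1 combined software spot error and dashed lines at 2-fold. Nr1i3 lies beyond 2-fold in 3 of the 4 comparisons, and every other factor lies between -0.54 and 0.63.

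Markers of macrophages, sinusoidal endothelial cells and stellate cells were, like Nr1i3, higher in Drp1LiKO cells. Of 18 macrophage markers, 15 were well above background on at least 1 array, and those past 2-fold higher in Drp1LiKO cells were 11 of 15 without and 10 of 14 with palmitate (11 and 9 with values below background raised to the lowest level called above it, the floor). Their summed linear level, in units of each array's 75th percentile, was 33.7 in untreated and 41.4 in palmitate control cells against 67.4 and 65.7 in Drp1LiKO cells. Adgre1, the F4/80 antigen of macrophages, was at -3.37, -0.93, -2.23 and -0.14 in the order untreated control, untreated Drp1LiKO, palmitate control and palmitate Drp1LiKO, the same order of cultures as Nr1i3. With palmitate the macrophage list went both ways, 2 of 13 past 2-fold higher and 4 lower in control cells and 1 of 15 higher and 6 lower in Drp1LiKO cells. The higher ones were Adgre1 and Marco in control and Marco in Drp1LiKO cells. C1qa, C1qb, C1qc and Cd5l were lower in both genotypes, unlike Nr1i3, and Cd5l differed by -1.99 in control and -3.08 in Drp1LiKO cells. The chemokine receptors Ccr2 and Cx3cr1 and the Kupffer cell gene Timd4 stayed at background throughout. Sinusoidal endothelial markers (12 of 12 detected on at least 1 array) summed to 2.33 and 2.40 in control against 6.57 and 4.69 in Drp1LiKO cells. Past 2-fold higher in Drp1LiKO cells were 9 of 12 without and 7 of 11 with palmitate, or 8 and 5 at the floor. With palmitate 1, Tek, was past 2-fold lower, also at the floor. Of the stellate cell markers, 10 of 12 were detected, without Des and Hand2, and those past 2-fold higher in Drp1LiKO cells were 7 of 10 without and 6 of 9 with palmitate, or 6 and 4 at the floor. Their median differences were 3.02 and 2.44, or 1.67 and 0.79 at the floor. Their sum, 45.9 and 47.0 in control against 63.3 and 59.8 in Drp1LiKO cells, is mostly the bright probe of Acta2, smooth muscle actin, which differed by 0.22 and 0.02. Without Acta2 the sums were 1.21 and 1.32 against 11.25 and 13.5. A dimmer Acta2 probe, well above background on all 4 arrays, differed by 2.18 and 2.06. Cholangiocyte markers, 6 of 10 detected, had median differences of -0.08 and -0.34. The part of these cells in the values of Nr1i3 and of the other factors was not tested. In such bulk cultures, fewer cells of a type and less RNA per cell cannot be told apart.

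The 3 genes whose profile lay nearest to that of Nr1i3, among 16610 other genes that every array measured well above background, were Coro1a, Hcls1 and Mme. Nearness was the Euclidean distance between profiles centred on their mean over the 4 arrays, and it was 0.28 for Coro1a (coronin 1A, an actin-binding protein of leukocytes), 0.32 for Hcls1 (a cortactin-like protein of blood cells) and 0.40 for Mme (the cell surface peptidase neprilysin). Coro1a was higher in Drp1LiKO cells by 1.34 and 1.38 log2 units without and with palmitate, and its palmitate differences were 1.14 (control) and 1.18 (Drp1LiKO). A likeness over 4 arrays is a description.

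**Figure D3:**
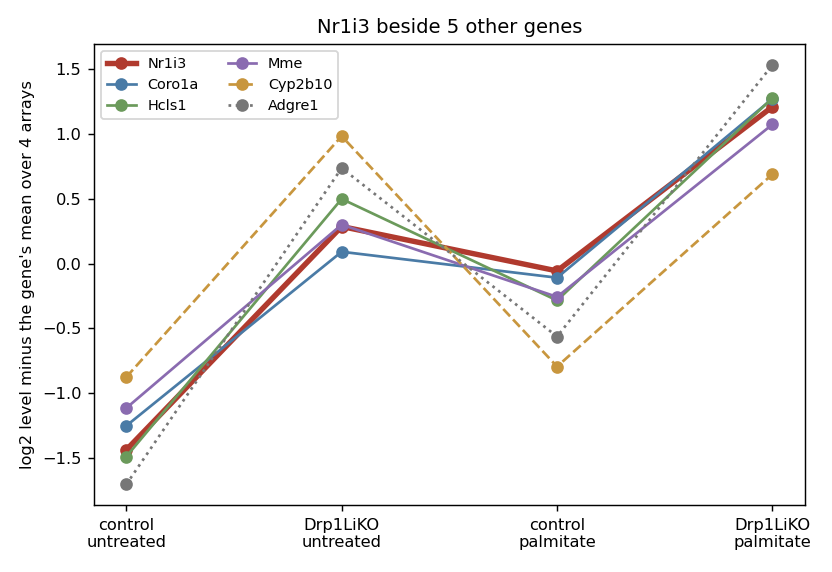
Log2 level of Nr1i3, of the 3 genes with the nearest profile, of Cyp2b10 and of the macrophage marker Adgre1 on the 4 arrays, each minus its own mean, with lines joining the 4 cultures of 1 gene. Nr1i3, the nearest genes and Adgre1 were higher with palmitate in both genotypes, whereas Cyp2b10 differed between palmitate and untreated cells by 0.08 in control and by -0.29 in Drp1LiKO cells. Adgre1 does not stand for all macrophage markers. With palmitate, 4 of 13 were past 2-fold lower and 2 higher in control cells, and 6 of 15 lower and 1 higher in Drp1LiKO cells.

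Many target genes of the foreign compound receptors were higher in Drp1LiKO cells, and few differed 2-fold with palmitate. Of 13 measured genes listed as CAR targets, 4 were past 2-fold higher in Drp1LiKO cells without palmitate, 3 with it, and none was lower by that much, with a median of 0.82 and 0.81 beside -0.02 and -0.03 over all genes and 0.50 in both conditions over the hepatocyte markers. With Cyp2c55, not well above background in control cells, taken at the floor, 3 were past 2-fold in each condition and the medians were 0.69 and 0.37, beside 0.50 and 0.42 for the hepatocyte markers at the floor. Over all genes 8.84% without and 7.25% with palmitate were past 2-fold higher in Drp1LiKO cells, and 5.60% and 4.27% lower. Cyp2b10, the classical CAR target, was at -2.24 and -2.16 in control and at -0.38 and -0.67 in Drp1LiKO cells without and with palmitate. Cyp2b9 was 1.93 and 1.49 log2 units higher in Drp1LiKO cells, and the oestrogen sulfotransferase Sult1e1 1.21 and 2.29 higher. With palmitate the median of the list was -0.01 in control and -0.10 in Drp1LiKO cells, while Nr1i3 itself stood 1.38 and 0.92 higher. Sult1e1 was the CAR target past 2-fold with palmitate, 1.24 higher in Drp1LiKO cells, and in control cells it differed by 0.16. Gadd45b, a stress-inducible gene also listed as a CAR target, ran the other way and was 0.95 and 0.94 lower in Drp1LiKO cells. Cyp2c55, the fourth CAR target counted without palmitate, was at least 1.61-fold higher there.

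Nr1i2, the pregnane X receptor gene, gave intensities of 6.95, 14.1, 6.21 and 12.4 in the order untreated control, untreated Drp1LiKO, palmitate control and palmitate Drp1LiKO. None was well above background, so no fold is given and nothing can be said of its direction. Genes listed as pregnane X receptor targets had median genotype differences of 0.49 without and 0.80 with palmitate. Without it 3 of 14 measured genes stood 2-fold higher in Drp1LiKO cells and 2 lower, beside 8.84% and 5.60% of all genes. With it 4 of 13 were higher and 1 lower, beside 7.25% and 4.27%. The higher ones were Cyp3a11, Cyp3a25 and Cyp3a41a in both conditions, and with palmitate also the drug efflux pump gene Abcb1a, which differed by -0.47 without it. Another Cyp3a gene, Cyp3a44, was counted as lower without palmitate on the signal of 1 array. Cyp3a44 was well above background only in untreated control cells, where it was at least 5.20-fold higher than in untreated Drp1LiKO cells and at least 3.05-fold higher than in palmitate control cells. Both palmitate cultures had it at background, so no genotype direction is given there. With palmitate the list's median was -0.11 in control and -0.18 in Drp1LiKO cells, and Abcb1a was 1.82 higher in Drp1LiKO cells. Cyp3a11, the main drug-oxidising Cyp3a enzyme of mouse liver, was at 0.62 and 0.20 in control against 2.85 and 2.50 in Drp1LiKO cells. Cyp3a and Cyp2b genes have near copies that a probe may not separate. The retinaldehyde dehydrogenase gene Aldh1a1 was lower in Drp1LiKO cells, by 1.22 and 1.42 log2 units. Alas1, the first enzyme of haem synthesis and on both target lists, was 0.96 and 0.90 higher, close to but under 2-fold.

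Hnf4a differed by little. Its brighter probe, at base 4262, was at 3.27 in untreated control, 3.34 in untreated Drp1LiKO, 3.16 in palmitate control and 3.32 in palmitate Drp1LiKO cells. The groups spanned 0.18 log2 units, less than the spot error of 0.20 on any one difference. The probe at base 413 was dim but well above background on all 4 arrays, at -3.77, -3.90, -3.84 and -3.61 in the same order, with genotype differences of -0.14 and 0.23 that disagree in sign. The limma genotype effect of the brighter probe had a 95% interval of -0.19 to 0.41.

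Among the Foxa genes, Foxa2 was lower in Drp1LiKO cells. It was at 2.63 and 2.74 in control against 2.22 and 2.20 in Drp1LiKO cells, without and with palmitate. Both Drp1LiKO cultures lay below both controls, and the levels within a genotype differed by no more than 0.11. The genotype difference was 1.33-fold (log2 -0.41) without and 1.45-fold (log2 -0.54) with palmitate, against a spot error of 0.20 for each, and of the genes well above background on both arrays 31.3% and 16.4% differed at least as much. Its limma effect was -0.47 ± 0.08 (adjusted p = 0.154). A size of this order is thus common among all genes.

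Foxa1 and Foxa3 differed less. Foxa1 was at 1.31 and 1.39 in control against 1.25 and 1.29 in Drp1LiKO cells, a span of 0.13. Foxa3 was at 0.09 in untreated control, 0.26 in untreated Drp1LiKO, -0.05 in palmitate control and -0.11 in palmitate Drp1LiKO cells. The lower values of Foxa3 were thus those of the palmitate cultures, by 0.13 in control and 0.37 in Drp1LiKO cells, and the genotype difference had opposite signs in the 2 conditions.

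Cebpa and Cebpb showed different patterns. Cebpa, which holds hepatocytes in a quiescent and metabolic state, was at 0.52 in untreated control, 0.01 in untreated Drp1LiKO, 0.31 in palmitate control and 0.13 in palmitate Drp1LiKO cells, lower in Drp1LiKO cells by 0.51 and 0.18. Only the difference without palmitate, 1.42-fold, was over 2 spot errors. Cebpb, which acute phase and stress signals induce, was at 4.08, 4.17, 4.32 and 4.79 in the same order. The palmitate Drp1LiKO culture stood apart from the other 3 in Cebpb, 1.39-fold above palmitate control and 1.55-fold above untreated Drp1LiKO, with log2 differences of 0.48 and 0.63 against spot errors of 0.20. The palmitate difference of Cebpb was 0.39 log2 units larger in Drp1LiKO than in control cells, which 1 array per group cannot test. The limma palmitate effect of Cebpb was 0.43 ± 0.15 (adjusted p = 0.515), with a 95% interval of -0.16 to 1.03.

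Genes listed as Foxa and Cebp targets went both ways. Their median genotype differences were 0.20 without and 0.45 with palmitate. Without it 5 of 19 measured genes stood 2-fold higher and 2 lower in Drp1LiKO cells, beside 8.84% and 5.60% of all genes. With it 6 of 19 were higher and 2 lower, beside 7.25% and 4.27%. The higher ones in both conditions were Tat and Tdo2, which degrade tyrosine and tryptophan, the urea cycle gene Arg1 and the siderophore-binding protein gene Lcn2. Tat was at -1.67 and -1.62 in control against -0.17 and -0.40 in Drp1LiKO cells, and Lcn2 at 3.90 and 4.35 against 5.57 and 6.37. Ass1 was past 2-fold only without palmitate, and Cps1 and Pck1 only with it. Pck1 was not well above background in palmitate control cells, and with it at the floor 5 were higher and the median was 0.28. Both genes at least 2-fold lower encode the acute phase protein serum amyloid A, with Saa1 at 7.84 and 7.78 in control against 6.28 and 6.70 in Drp1LiKO cells.

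Prox1 was lower in Drp1LiKO cells by one probe and not by the other. The brighter probe was at -0.33 and -0.23 in control against -0.54 and -0.62 in Drp1LiKO cells, differences of -0.21 and -0.39. The second probe, which lies nearer the 3′ end, was at -2.27 and -2.41 in control and -2.25 and -2.44 in Drp1LiKO cells, differences of 0.01 and -0.03 within a spot error of 0.24. The second probe thus did not repeat the lower values of the brighter one, whose differences each had a spot error of 0.21. Whether the probes differ beyond these errors was not tested. Lymphatic endothelial cells share Prox1 with hepatocytes. Of their 7 markers, 6 were detected on at least 1 array, Ccl21a was not, and their summed level was 0.63 and 0.69 in control against 1.32 and 1.92 in Drp1LiKO cells. The brightest, Pdpn, was 1.46 and 1.99 log2 units higher in Drp1LiKO cells. Flt4 differed by 0.02 and 0.45 and Nr2f2 by 0.19 and 0.47. The part of lymphatic cells in the Prox1 values was not tested.

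Over the 8 measured factors, the median genotype difference was 0.01 without and -0.08 with palmitate, beside -0.02 and -0.03 over all genes. By their brightest probes, Foxa1, Foxa2, Cebpa and Prox1 were lower in Drp1LiKO cells in both conditions, and Hnf4a, Cebpb and Nr1i3 higher in both. The differences of Foxa1 and Hnf4a, of Cebpb without palmitate and of Cebpa with it were below their spot error of 0.20. Without palmitate, the second probes of Hnf4a and Prox1 had the opposite sign. The median palmitate difference was 0.09 in control and 0.01 in Drp1LiKO cells, beside 0.01 and 0.00 over all genes. Foxa1, Cebpb and Nr1i3 were higher with palmitate in both genotypes, and Hnf4a and Foxa3 lower in both, with sizes under 0.11 for Foxa1 and Hnf4a.

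Other transcription factors of hepatocytes gave a wider picture. All 35 listed were well above background on at least 1 array and 34 on all 4, and in Drp1LiKO cells 3 of 35 stood 2-fold higher and 1 lower without palmitate, against 3 of 34 higher and 0 lower with it. Over all genes 8.84% were higher and 5.60% lower without palmitate, and 7.25% and 4.27% with it, so the list's higher counts are near those shares. Creb3l3, the fasting and lipid factor of the endoplasmic reticulum, was at 2.28 and 2.19 in control against 3.46 and 3.40 in Drp1LiKO cells, and the circadian output factor Dbp was at -0.87 and -1.42 against 0.44 and 0.06. Klf15, a fasting-induced factor, was 0.97 and 1.08 higher, whereas Tbx3, a T-box repressor of liver development, was 1.15 and 0.84 lower. A second Tbx3 probe, well above background on all 4 arrays, differed by -0.69 and -0.73, under 2-fold. Nr2f1, the third factor counted as higher without palmitate, was well above background only in untreated Drp1LiKO cells, which makes it at least 1.58-fold higher there. With palmitate, Cebpd was the factor past 2-fold in both genotypes, by 1.36 in control and 1.55 in Drp1LiKO cells, and this relative of Cebpb is named after its values were seen. The bile acid receptor gene Nr1h4 and the gene of the liver receptor homologue, Nr5a2, both also picked for their values, were lower in Drp1LiKO cells by 0.89 and 0.99 and by 0.71 and 0.63, under 2-fold.

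Of 14 measured coregulators and dimer partners, Ppargc1a, which coactivates Hnf4a, was 1.21 and 1.27 log2 units higher in Drp1LiKO cells. A second Ppargc1a probe, well above background on all 4 arrays, was 2.05 and 1.14 higher. Nrip1, a corepressor of nuclear receptors, was 0.62 and 1.05 higher, with 4 dimmer probes between 0.15 and 1.78. Ppargc1b was 0.66 and 0.84 higher, while Cebpe, of the leucine zipper family, was 0.96 and 0.71 lower. The retinoid partner of the nuclear receptors, Rxra, differed by 0.17 and 0.25. None of the 14 was past 2-fold with palmitate. Nr0b2, the corepressor induced by bile acids, was not well above background on any array.

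Markers of fetal or dedifferentiating hepatocytes were examined because these factors are lost when hepatocytes dedifferentiate. Of 20 listed, 16 were detected on at least 1 array, and values below background were raised to the floor. None of the 15 and 16 measured without and with palmitate then differed 2-fold between genotypes by its brightest probe. Krt7 without palmitate and Gpc3 with it passed 2-fold only against an array where they were not well above background. No fold can be given for Krt7, and Gpc3 was at least 1.58-fold lower in Drp1LiKO cells. The markers with larger mean differences went both ways. Afp was at 3.36 and 3.54 in control against 2.80 and 2.87 in Drp1LiKO cells, and Snai1 was 0.91 and 0.99 lower. Cd24a was 0.87 and 0.99 higher by its brightest probe. A second Cd24a probe, well above background on all 4 arrays, was 1.17 higher in each condition, past 2-fold. Sox4 was 0.44 and 0.67 higher by its brightest probe, while a second probe, well above background on all 4 arrays, differed by -0.06 and 0.66.

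**Figure D4:**
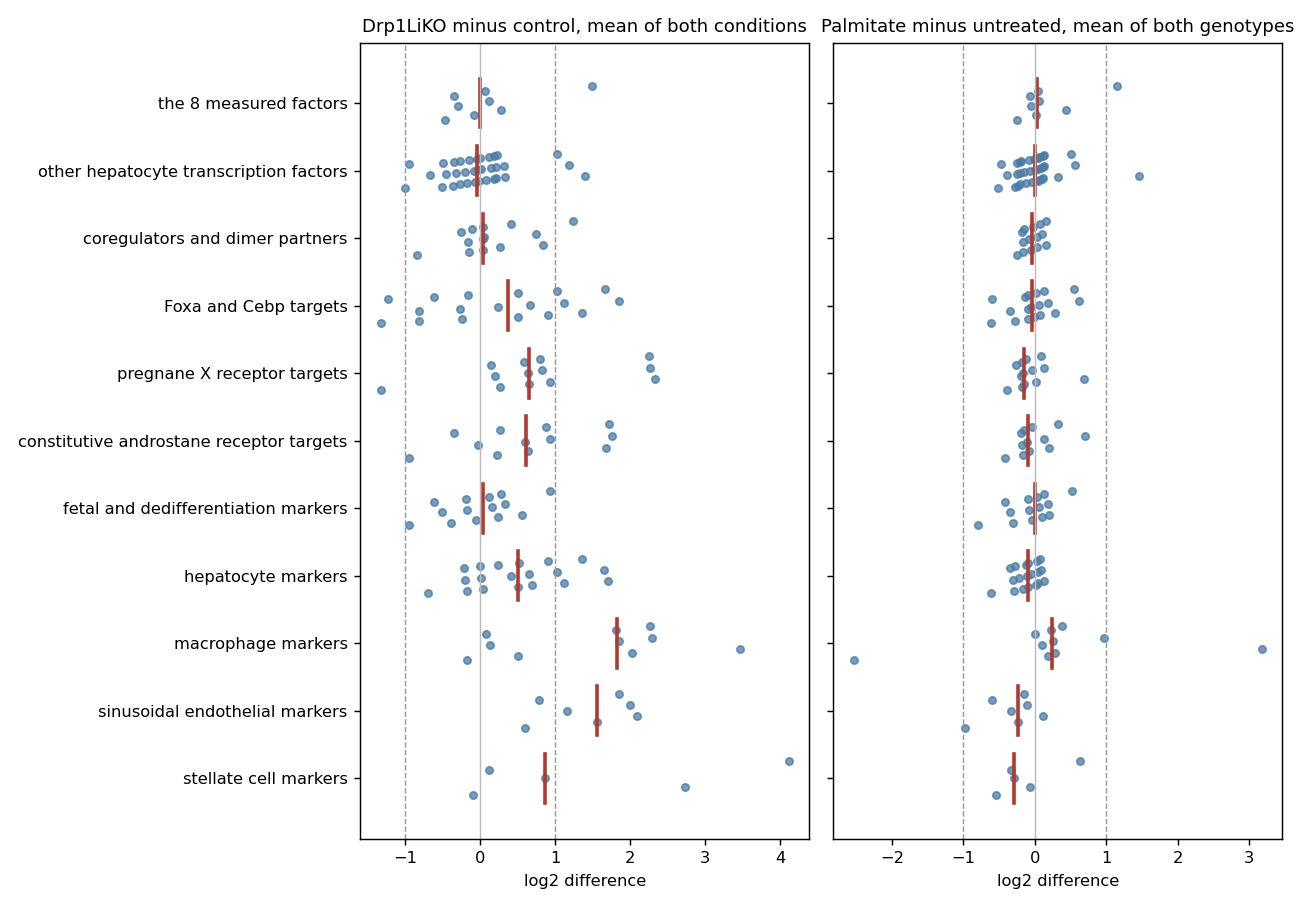
Log2 difference of each list gene measured on every array between genotypes (left, mean of both conditions) and between palmitate and untreated cells (right, mean of both genotypes), 1 point per gene, by list, with the list's median as a bar and dashed lines at 2-fold. Between genotypes the medians of the receptor targets, 0.65 and 0.61, lie beside 0.50 for hepatocyte markers and below 1.83, 1.56 and 0.86 for macrophage, sinusoidal endothelial and stellate cell markers, while with palmitate the medians lie between -0.30 and 0.24.

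The windows of 250 bases before the start sites of the members were read from RefSeq promoters (GRCm38.p6), where all 9 genes matched with 13 start sites. The letters searched on both strands were TGTTTAC and TGTTTGC for FOXA, TTGCNNAA for C/EBP, AGGTCA for nuclear receptors, AAAGTCC for HNF4, GGGCGG for the GC box and CACGTG for the E-box, and no motif contains another. Of all 32851 promoter windows, these were found in 3.17%, 4.30%, 9.56%, 14.0%, 3.58%, 32.7% and 6.02% in that order. Foxa1, Nr1i2 and Prox1 hold FOXA letters, and no member window holds those for C/EBP, nuclear receptors or HNF4. The windows of Nr1i3 and Cebpb, the members with the widest range over the arrays, are printed with matches in capitals. That of Nr1i3 (chr1:171213720-171213969, plus strand) holds 1 E-box, and that of Cebpb (chr2:167688665-167688914, plus strand) 5 GC boxes, some overlapping, with 53.2% and 81.6% G and C beside a median of 52.4%. A match is no evidence of binding in these cells.
Nr1i3: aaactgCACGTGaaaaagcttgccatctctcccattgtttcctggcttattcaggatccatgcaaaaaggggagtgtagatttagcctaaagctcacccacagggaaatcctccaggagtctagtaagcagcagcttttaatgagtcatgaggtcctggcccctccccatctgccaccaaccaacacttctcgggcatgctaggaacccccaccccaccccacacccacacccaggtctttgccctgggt
Cebpb: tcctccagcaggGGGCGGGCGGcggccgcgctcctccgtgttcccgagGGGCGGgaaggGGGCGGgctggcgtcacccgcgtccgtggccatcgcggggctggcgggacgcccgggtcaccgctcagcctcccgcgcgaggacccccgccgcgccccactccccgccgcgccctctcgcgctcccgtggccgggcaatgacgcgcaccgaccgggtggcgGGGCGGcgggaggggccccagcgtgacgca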

How the data were processed

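Four-array data of primary hepatocytes were analysed, with 1 array per group and all groups taken from the sample labels. The submitters' processing notes name Agilent Feature Extraction 9.5.1.1, while the file headers give 10.7.1.1. The deposited scanner tables hold the authors' background-subtracted intensity of each spot. The deposited value table holds linear signal that was made equal in distribution across arrays, and its log2 was tried in its place. The labels and the study's methods name different RNA kits. Outlier spots were left out, repeat spots averaged, and log2 intensity minus the array's 75th percentile computed (Python 3.11.15). A gene's brightest probe well above background on at least 1 array stood for it. Repeat spots of 1 probe had a median SD of 0.03 to 0.04 log2 units. The software spot error includes its preset 10%, which makes up nearly all of it for bright probes. It was 0.14 on each array for the brightest probes of Hnf4a, Foxa1, Foxa2 and Cebpb. Neither measure covers the spread between cultures or mice. The number of arrays limits precision. Genotype and palmitate effects were fitted over all genes with limma 3.58.1 (R 4.3.3), which was tested on simulated data, with Benjamini-Hochberg adjustment. Per list, the text names up to 4 genes with the largest mean genotype difference among those well above background on all 4 arrays, and others where they were counted, undetected or partners of a member, or chosen after their values were seen. The members and gene lists were chosen with earlier results of these data known. Gsta1 and Ugt1a1 have no probe of that name here. Raising dim values to the floor in the gene lists, and summing a list without its brightest gene, were added after seeing the data. One gene list and one motif are not reported here.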

Additional observations from a re-analysis of the deposited data

Results flagged for a closer look

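With 1 array per group, factors were flagged only by opposite signs between groups, and 4 of the measured factors had them. Factors without opposite signs can differ more. The palmitate response in Drp1LiKO minus that in control cells was -0.46 for Nr1i3 and 0.39 for Cebpb, which were not flagged. The palmitate response in Drp1LiKO minus that in control cells was -0.13 log2 units for Foxa2, 0.32 for Cebpa and -0.17 for Prox1, since the responses were 0.11 and -0.02, -0.21 and 0.11, and 0.10 and -0.07 in control and Drp1LiKO cells. For Foxa3 the genotype difference was 0.18 without and -0.06 with palmitate, a difference of -0.24. None of these differences was tested. The single differences of opposite sign that flagged the 4 factors lie within or close to 1 software spot error of 0.20 to 0.21.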

How the results depend on the processing

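Leaving out a library was not possible with 1 array per group. No paired analysis was possible because each group holds 1 array, though the additive limma model, whose palmitate term is also the slide, sets the genotypes side by side within slides. In the order genotype untreated, genotype palmitate, palmitate in control, palmitate in Drp1LiKO, the genes at least 2-fold different numbered 2869, 2175, 1072 and 1388. They became 1047, 684, 311 and 407 with normexp background correction, 1381, 932, 187 and 429 when both arrays had to be well above background, and 4679, 3932, 2889 and 3529 with no filter on dim probes. With dim values raised to the floor, palmitate counts were 656 and 894. The factors past 2-fold went from 1 to 0 with normexp in the first 3 comparisons, and from 0 to 1 (Nr1i3) for palmitate in Drp1LiKO cells in the deposited value table. From 0 in the additive limma model, genes called by genotype became 5275 with an intensity trend, 2525 among genes measured on all 4 arrays and 1513 with normexp, where Nr1i3 passed (effect 0.59, adjusted p = 0.0444), and stayed 0 in the deposited table. For palmitate they became 95 with the trend. Of 168 recomputed differences of the other factors, 3 turned sign, each at most 0.10 in size, and none moved by more than 0.18. The offset of 50 in normexp shrinks the differences of dim spots by construction, and the cause of the other shifts was not tested. Dim signal limits Nr1i3 and Nr1i2 most.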
